A study of Mus musculus with 63 samples.

Results

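The genes of oxidative phosphorylation were taken from the RNA-seq count tables by their symbols. The rule itself uses no measured values, but it was chosen with earlier results of these data known. A gene was included if its symbol began with Nduf, Uqcr or Atp5, or with Cox followed by a digit from 4 to 8, if it was Sdha, Sdhb, Sdhc or Sdhd, or if it was a mitochondrial gene named mt-Nd, mt-Co, mt-Cytb or mt-Atp. The 4 matching symbols that end in -ps were left out. This rule found 105 of 47517 symbols, 92 of them nuclear genes and 13 of them genes of the mitochondrial genome. Of the nuclear genes, 36 belong to complex I, 4 to complex II, 8 to complex III, 19 to complex IV and 15 to complex V, and the other 10 are assembly or associated factors (Ndufaf1 to Ndufaf7, Atp5s, Atp5sl and Cox7a2l). The mitochondrial genes code for 7 subunits of complex I, 1 of complex III, 3 of complex IV and 2 of complex V.

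Oxidative phosphorylation is the process by which mitochondria turn the electrons of NADH and succinate into ATP. Complexes I and II pass electrons to ubiquinone, complex III passes them to cytochrome c and complex IV passes them to oxygen, and the proton gradient built on the way drives complex V, the ATP synthase. Every complex except complex II is built from subunits of both genomes, so both sets of transcripts are needed. Naive mouse embryonic stem cells are known to respire as well as to ferment glucose. YY1, the zinc-finger factor that the study manipulates, is known from mouse skeletal muscle to work with PGC-1alpha on nuclear genes of mitochondrial respiration.

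The study concerns YY1 in extended pluripotency, and the RNA-seq compared here covers 22 libraries in 10 groups, out of 63 samples; the other 41 samples were not analysed here. All cells are mouse cells of strain C57BL/6. Embryonic stem cells (ES, 3 libraries) were kept in serum-free 2i medium and extended pluripotent stem cells (EPS, 3 libraries) in serum-free LCDM medium. Both were grown either on feeder fibroblasts stopped with mitomycin C or on a Matrigel coat, and the labels do not say which applied to which library. Another 4 groups of 2 libraries each are ES cells labelled oeCtrl or oeYy1, an overexpression control and overexpression of Yy1, and EPS cells labelled with a control shRNA (shCtrl) or as Yy1-depleted (shYy1). The last 4 groups, again of 2 libraries each, are the same 4 lines on day 6 in F4H medium. The day 6 controls are labelled only as control, and their titles name oeCtrl and shCtrl. The labels name no hairpin, vector or clone, so each construct stands as 1 line, and they do not say whether replicates came from separate cultures. The p-values below therefore measure the spread between these libraries, which may be technical.

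The gene counts of a library ranged from 13672061 to 20782348, so that 3 counts, taken as the limit of detection, corresponded to 0.144 to 0.219 CPM, the counts of a gene over the gene counts of its library, scaled to 1000000. Yy1 itself was at 120.4 and 124 CPM in the oeCtrl libraries and 934 and 941 CPM in the oeYy1 libraries, and at 134 and 134 CPM in the shCtrl libraries and 70.5 and 70.5 CPM in the shYy1 libraries. On day 6 it was at 119.5 and 126 CPM in oeCtrl, 331 and 324 CPM in oeYy1, 129 and 123 CPM in shCtrl and 114 and 109.6 CPM in the libraries labelled shYy1. Summed pluripotency markers (8 genes) were between 3887 and 6598 CPM before F4H and between 182 and 454 CPM on day 6, while summed trophoblast markers (8 genes) went from 119 to 210 CPM to 3241 to 6321 CPM. Replicate 3 of ES and replicate 3 of EPS stood apart from the other libraries of their groups: they had fewer counts in genes with a short genomic span and more counts in fibroblast markers, and results on these groups are given with and without them. Fibroblast markers (13 genes) summed to 3545, 3799.9 and 6154 CPM in ES and 1497, 1336 and 2524 CPM in EPS.

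Summed over all 92 nuclear genes, oxidative phosphorylation transcripts took 13682, 14528 and 11363 CPM in the 3 ES libraries and 14477, 14268 and 12094 CPM in the 3 EPS libraries. The ranges of ES and EPS overlapped. The sum was lower in all 8 undifferentiated libraries that carry a construct: it was 8793 and 8312 CPM in oeCtrl, 8157 and 7987 CPM in oeYy1, 8897 and 9049.8 CPM in shCtrl and 8663 and 8473 CPM in shYy1. None of these 8 libraries reached the lowest of the ES and EPS libraries. On day 6 the sum was 8871 and 8398 CPM in oeCtrl, 8578 and 8005 CPM in oeYy1, 10133 and 10453 CPM in shCtrl and 8930.4 and 9016 CPM in shYy1. The shCtrl libraries were the highest of the 8 day 6 libraries. Scaled by effective library size instead, the day 6 means of shCtrl and shYy1 were 9622 and 9206 CPM, against 10293 and 8973 CPM here.

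The mitochondrial genes followed another order. Their 13 transcripts summed to 23427, 21251 and 29885 CPM in ES, 23809, 25794 and 27012 CPM in EPS, 28964 and 27364 CPM in oeCtrl, 28196 and 29847 CPM in oeYy1, 22471 and 22594 CPM in shCtrl and 24976 and 21485 CPM in shYy1. On day 6 all 8 libraries were below all 14 undifferentiated ones, at 14585 and 15696 CPM in oeCtrl, 13493 and 16082 CPM in oeYy1, 18924 and 18269.8 CPM in shCtrl and 15552 and 15821 CPM in shYy1. The ratio of the mitochondrial to the nuclear sum ran from 1.46 in the second ES library to 3.74 in the second oeYy1 library. These are bulk libraries, in which fewer cells of a type and less RNA per cell cannot be told apart. The share of gene counts in the 2387 other nuclear genes with a genomic span under 2000 bases was, like the nuclear sum, highest in ES and EPS libraries 1 and 2. It was 2.77, 3.01 and 2.17% in ES, 2.91, 2.96 and 2.31% in EPS, between 1.21 and 1.41% in the 8 undifferentiated libraries with a construct and between 1.79 and 2.22% on day 6. Between stages the share went up in each line. In ES oeCtrl it went from 1.30 and 1.24% to 1.97 and 1.84%. In ES oeYy1 it went from 1.23 and 1.21% to 1.89 and 1.79%. The nuclear sums of these ES lines overlapped between the stages. In EPS shCtrl the share went from 1.36 and 1.37% to 2.17 and 2.22%. In EPS shYy1 it went from 1.41 and 1.38% to 1.92 and 1.95%. The nuclear sums of these EPS lines were also higher on day 6, without overlap. The part of this share in the sums was not tested.

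**Figure D1:**
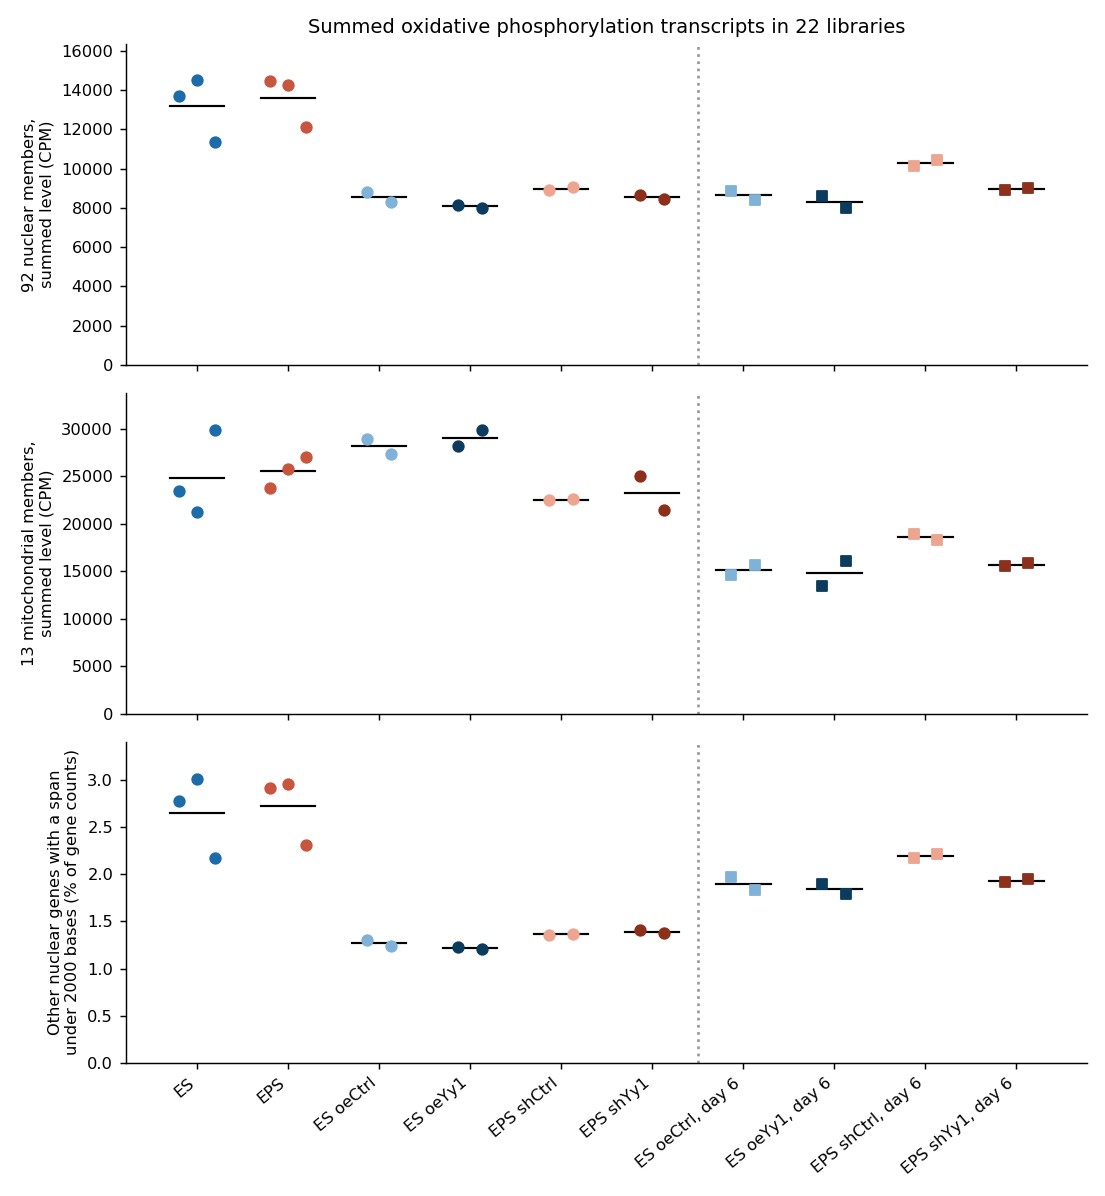
Summed level in each of the 22 libraries (points; circles are undifferentiated, squares are day 6 in F4H; bars are group means). The panels show the 92 nuclear genes and the 13 mitochondrial genes in CPM, and other nuclear genes with a span under 2000 bases as a percentage of gene counts; the nuclear sum and the short-gene share are both highest in libraries 1 and 2 of ES and EPS.

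By complex, complex V, the ATP synthase, had the largest nuclear sum in each group. Its 15 genes summed to 5827 ± 593 (SD, n = 3) CPM in ES and 4376 ± 50.7 (SD, n = 2) CPM in shYy1, to take 2 groups. It includes Atp5b and Atp5a1, which code for the beta and alpha subunits of the catalytic F1 head; Atp5b was at 2146, 2257 and 1948 CPM in ES and at 1162 and 1113 CPM in day 6 oeYy1. Complex II, which has only the 4 subunits Sdha to Sdhd and is also the succinate dehydrogenase of the citric acid cycle, summed to 637 ± 21.6 (SD, n = 2) CPM in oeCtrl and 471 ± 23.9 (SD, n = 2) CPM in oeYy1. Of the 8 tissue isoforms, Cox8b and Cox8c were at or near 0 in every library, with at most 0.269 CPM for Cox8b and 0.189 CPM for Cox8c, and Cox6a2, the heart and muscle form of subunit 6a, reached at most 0.894 CPM. Cox6b2, the testis form of subunit 6b, was between 11.8 and 103 CPM. Sums in CPM do not allow levels of different nuclear genes to be compared per length, since transcript lengths were not used here.

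Of the 13 mitochondrial genes, 7 held nearly all of the counts. Per kilobase of gene, mt-Co1, the catalytic subunit of complex IV, was highest in each of the 10 groups, from 4404 ± 224 CPM per kb in day 6 oeCtrl to 10733 ± 633 CPM per kb in oeCtrl (mean ± SD, n = 2 each). In ES it was followed by mt-Nd1 at 5058 ± 678 CPM per kb and mt-Cytb, the cytochrome b of complex III, at 3066 ± 421 CPM per kb (n = 3). In EPS the order was the same, with mt-Nd1 at 4801 ± 414 CPM per kb and mt-Cytb at 4055 ± 37.7 CPM per kb. mt-Nd6, which lies alone on the light strand, was at 762 ± 84.9 CPM per kb in ES and 310.2 ± 69 CPM per kb in shYy1; whether the counting used strand is not given in the sources used here, so its value is uncertain. The other 6 genes (mt-Co2, mt-Atp8, mt-Atp6, mt-Co3, mt-Nd3 and mt-Nd4l) were at most 13.5 CPM in every library. They lie side by side between positions 7013 and 10173 of the mitochondrial genome, and the mouse nuclear genome is known to hold a near-identical copy of part of it on chromosome 1. Between 5.45 and 6.66% of the reads in the tables aligned to more than 1 place and were in no gene count, so the level of this stretch is uncertain. Calls in this stretch are not named below, but counts of mitochondrial genes called include them.

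**Figure D2:**
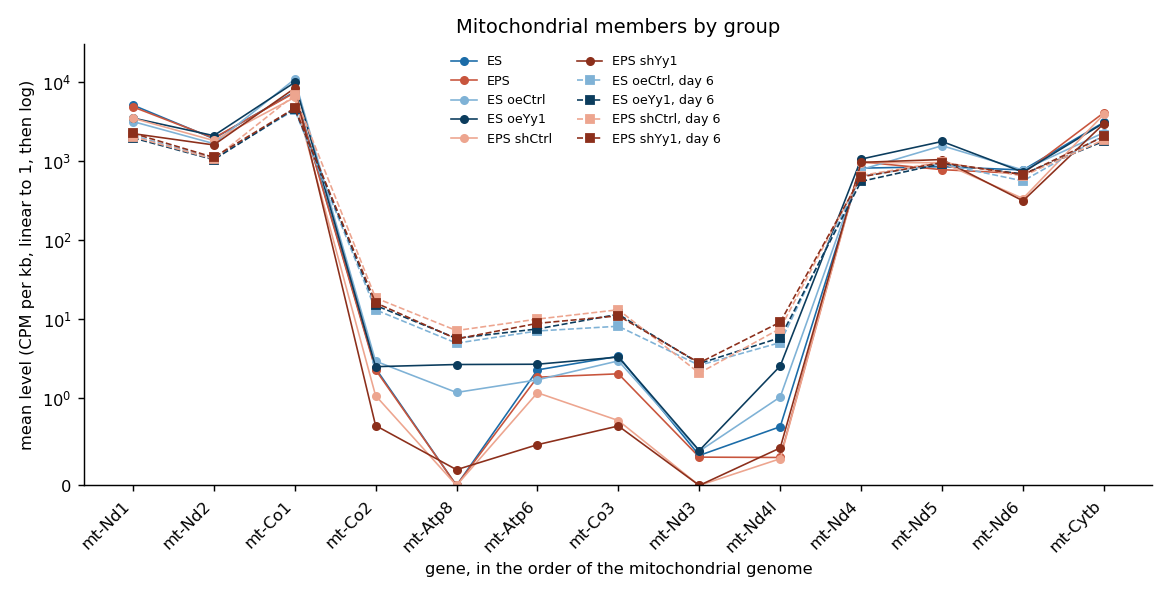
Mean level of the 13 mitochondrial genes in each of the 10 groups, in CPM per kilobase on an axis that is linear to 1 and logarithmic above, in the order of the genes along the mitochondrial genome. Every group falls from mt-Co1, at 4404 or more, to below 20 over the stretch from mt-Co2 to mt-Nd4l and returns at mt-Nd4; solid lines are undifferentiated groups and dashed lines are day 6.

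Each gene was then tested in 13 comparisons with edgeR's quasi-likelihood test, with Benjamini-Hochberg adjustment over all genes of the fit, and counted as higher or lower where the adjusted p was below 0.05. A positive log2 fold change means a higher level in the group named first.

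**Figure D3:**
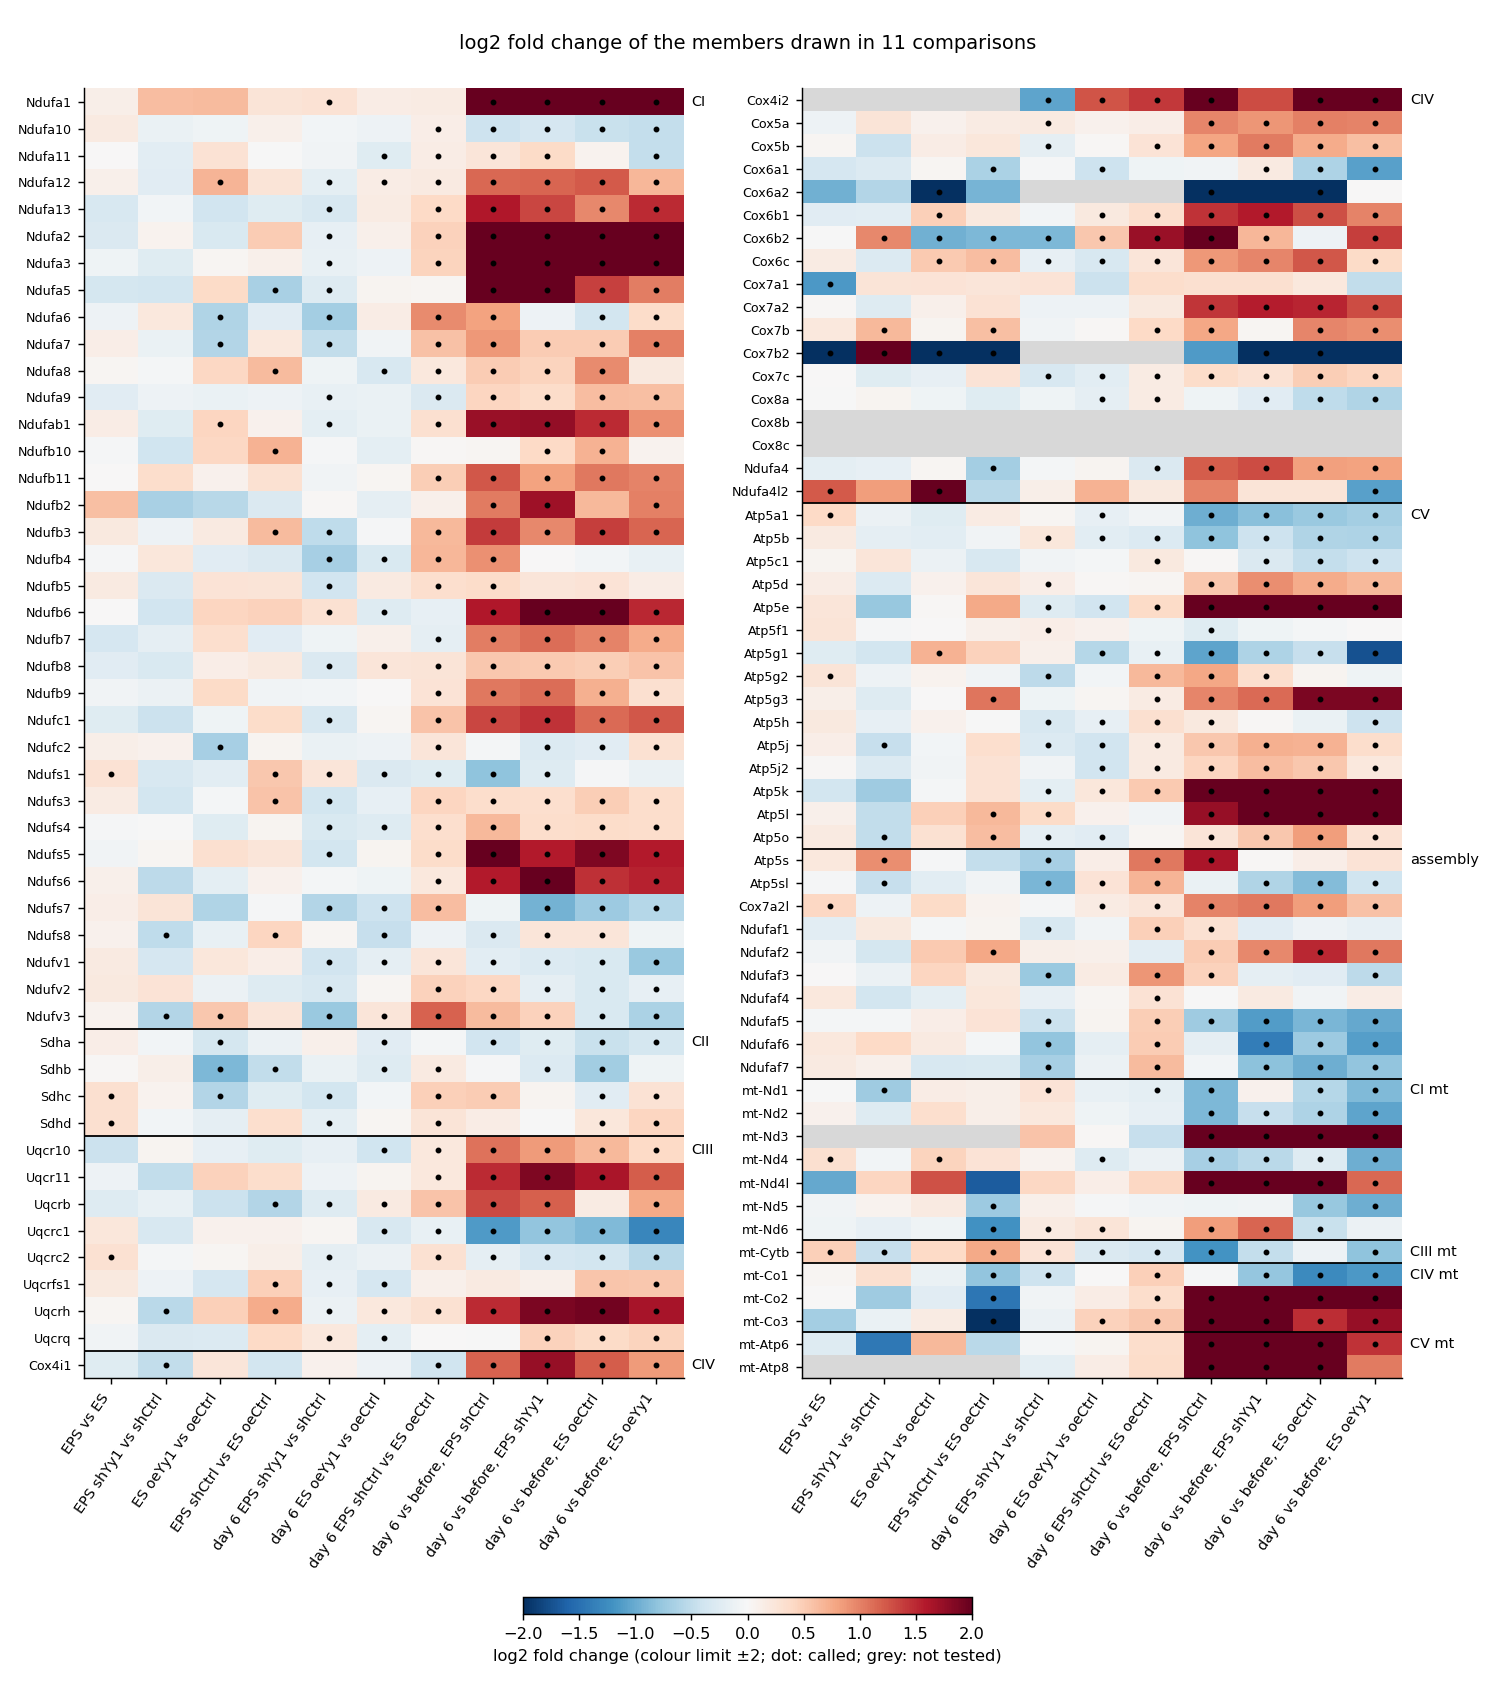
The log2 fold change of 104 of the 105 genes (rows, by complex; colour limit ±2) in 11 comparisons (columns). A dot marks an adjusted p below 0.05 and grey a gene that was too low to be tested. Among nuclear genes at 5 CPM or more, Atp5k rose most in the 4 columns of day 6 against undifferentiated cells, by 3.41 to 4.15.

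The first comparison asks how EPS cells differ from ES cells. Of 89 nuclear genes tested, 8 were higher and 2 lower in EPS, with a median log2 fold change of 0.04; over all 16440 genes tested, 30.6% were called, 13.8% higher and 16.9% lower. Complex II and the ATP synthase held 4 of the 8 rises. Ndufa4l2, a hypoxia-induced relative of the complex IV subunit Ndufa4, was at 4.68, 5.24 and 7.28 CPM in ES and 13.3, 14.7 and 9.97 CPM in EPS. All EPS libraries lay above all ES libraries (log2 fold change 1.22, SE 0.26, adjusted p = 0.00183). Atp5a1, the F1 alpha subunit, was at 1251, 1310.3 and 1181 CPM in ES and 1644, 1608 and 1454 CPM in EPS, without overlap (log2 fold change 0.40, SE 0.10, adjusted p = 0.00697). Sdhd, a membrane anchor of complex II, was at 157, 162 and 143 CPM and 191, 195 and 163 CPM and did not overlap either (log2 fold change 0.32, SE 0.11, adjusted p = 0.0365). The other rises were smaller than 0.42 on the log2 scale: Sdhc, the second anchor, by 0.32; Uqcrc2, a core protein of complex III, by 0.30; Ndufs1, a core iron-sulphur subunit of complex I, by 0.29; Atp5g2, 1 of 3 genes for the same c-ring subunit, by 0.26; and Cox7a2l, a supercomplex factor, by 0.41. Sdhc and Cox7a2l overlapped between the groups, but were higher in EPS in each of the 3 pairs of same-numbered libraries: Sdhc was at 159.9, 172 and 136 CPM in ES and 191, 198 and 169 CPM in EPS, and Cox7a2l at 155, 163 and 133 CPM and 204, 205 and 160.0 CPM, in the order of the numbers.

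Among the genes that were lower in EPS, Cox7a1, the heart and muscle form of subunit 7a, was at 9.29, 8.01 and 4.65 CPM in ES and 3.55, 3.71 and 2.17 CPM in EPS. The groups did not overlap (log2 fold change -1.14, SE 0.29, adjusted p = 0.00632). The other, Cox7b2, a testis form, was at most 0.537 CPM; it is named because only 2 genes fell. Of the 11 mitochondrial genes tested, mt-Cytb was at 3392, 3095 and 4036 CPM in ES and 4665, 4589 and 4662 CPM in EPS, higher in every EPS library (log2 fold change 0.47, SE 0.12, adjusted p = 0.00799), and mt-Nd4 was higher, with groups that overlapped but a higher EPS library in each of the 3 pairs (log2 fold change 0.33, SE 0.10, adjusted p = 0.0217). Fibroblast markers moved the other way, with 9 of 13 lower in EPS; Col1a1 had means of 907 CPM in ES and 100.4 CPM in EPS, and the part of feeder RNA in these results was not tested.

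The calls on Ndufa4l2, Atp5a1, Cox7a1 and mt-Cytb were kept under all 14 alternatives run, while the count of 10 was not stable. The labels give no pairing of these libraries beyond the replicate number. With that number as a block, the count was 26, 13 higher and 13 lower. Without replicate 3 of both groups it was 22, 12 higher and 10 lower. Leaving out a single library gave 6 without the first ES library, 17 without the third, 5 and 4 without the first and second EPS libraries and 17 without the third. The mitochondrial count of 2 was 1 without the first or second ES library or the second EPS library. Scaled by library totals alone, the 10 calls split into 4 higher and 6 lower, so no direction of the nuclear genes as a set can be given.

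Pathway genes outside the complexes were called in several lists. Of 20 genes that bring pyruvate and carbon into the citric acid cycle, 8 were higher and none lower in EPS (median 0.19). Pdk1, a kinase that inhibits pyruvate dehydrogenase, was at 38.3, 36.2 and 46.2 CPM in ES and 188, 187 and 199.7 CPM in EPS (log2 fold change 2.32, SE 0.15, adjusted p = 9.56e-09), with no overlap. Ucp2, an inner-membrane carrier, was higher (0.90), as was Pdhb, a subunit of pyruvate dehydrogenase (0.59). Electron carriers were called in 2 of 14 genes, both higher, other assembly factors in 9 of 34 (5 higher), and factors of mitochondrial DNA in 3 of 12, all higher. Mitochondrial ribosomal proteins were called in 8 of 76 genes, 4 in each direction. None of 8 regulators passed edgeR's adjusted threshold, nor did any at an unadjusted p below 0.05, the count being 0.

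Depletion of Yy1 in EPS cells is the second comparison. Of 89 nuclear genes, 4 were higher and 7 lower in shYy1 than in shCtrl (median -0.16), against 28.5% of all 16440 genes called, 15.1% higher and 13.3% lower. The genes that fell were spread over complexes I, III, IV and V. Ndufv3, an accessory subunit of the NADH-binding arm of complex I, went from 35.3 and 34.8 CPM to 23.6 and 25 CPM. Both shYy1 libraries were below both controls (log2 fold change -0.59, SE 0.15, adjusted p = 0.00892). Cox4i1, the common form of complex IV subunit 4, went from 76 and 84.5 CPM to 61.5 and 58.2 CPM, without overlap (log2 fold change -0.49, SE 0.17, adjusted p = 0.0449). The remaining falls were Uqcrh, the hinge protein of complex III (-0.53), Ndufs8, an iron-sulphur subunit of complex I (-0.51), Atp5o, the OSCP of the ATP synthase stalk (-0.48), and, outside the rule for named genes, Atp5sl (-0.47) and Atp5j (-0.45).

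Of the genes that rose, Cox6b2 went from 20.7 and 11.8 CPM in shCtrl to 29.5 and 36.2 CPM in shYy1. The groups did not overlap, although the controls differed from each other (log2 fold change 0.96, SE 0.23, adjusted p = 0.00503). Atp5s, the coupling factor B, was at 5.23 and 3.65 CPM and 8.34 and 9.21 CPM (log2 fold change 0.93, SE 0.24, adjusted p = 0.00748). Cox7b, an X-linked subunit of complex IV, was at 83.4 and 87 CPM and 144 and 136 CPM, well apart (log2 fold change 0.65, SE 0.16, adjusted p = 0.00691). The X chromosome as a whole moved in the same direction: of 607 X-linked genes tested, 351 were higher and 15 lower, with a median of 0.83 against -0.03 for the autosomes. The other X-linked members did not pass, with Ndufa1 at 5.17 and 6.35 and 10.0 and 8.55 CPM (log2 fold change 0.62, SE 0.25, adjusted p = 0.0772) and Ndufb11 at 28.9 and 27.9 and 38 and 37.6 CPM (log2 fold change 0.35, SE 0.18, adjusted p = 0.163). The last rise, Cox7b2, rested on at most 1.68 CPM. Fibroblast markers were also higher, in 4 of 13 cases with none lower, and summed to 1579 and 1344 CPM in shCtrl and 2142 and 2037 CPM in shYy1, while the defining marker Col1a1 had means of 0.643 and 6.35 CPM; their part was not tested.

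Of the 11 mitochondrial genes tested, 2 were lower in shYy1. mt-Nd1 was at 3509.9 and 3089.5 CPM in shCtrl and 2545 and 1669.7 CPM in shYy1, without overlap but with a wide gap between the shYy1 libraries (log2 fold change -0.71, SE 0.16, adjusted p = 0.00412). mt-Cytb was at 3823 and 5023 CPM and 3589 and 3148 CPM (log2 fold change -0.46, SE 0.15, adjusted p = 0.0301). Each of the 10 named calls of this comparison was lost under at least 1 alternative. The nuclear count was 2 without the second shCtrl library, 4 without the first shYy1 library and 3 without the second, and the mitochondrial count was 1, 1 and 0; scaled by library totals alone, 7 nuclear genes were higher and 6 lower.

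Genes of mitochondrial translation and transcription were called mostly lower. Of 76 mitochondrial ribosomal protein genes, 24 were lower and none higher (median -0.29), led by Mrps18b (-0.99), Mrpl20 (-0.89) and Mrpl47 (-0.68). Of 12 genes for mitochondrial DNA and its transcription, 5 were lower and 1 higher; Lrpprc, which stabilises mitochondrial messengers, went from 207 and 232 CPM to 158 and 174 CPM (log2 fold change -0.47, SE 0.11, adjusted p = 0.00506), and Tfb2m, a transcription factor of the organelle, fell as well (-0.58). At fuel entry, 6 of 20 genes were higher and 2 lower. Pdk1 was at 242 and 365 CPM in shCtrl and 75.6 and 86.9 CPM in shYy1 (log2 fold change -1.97, SE 0.17, adjusted p = 5.5e-07), while Pdk3 (1.09) and Pdha1 (0.72), both X-linked, were higher. Electron carriers were called in 2 of 14 genes, both lower, assembly factors in 5 of 34 (2 higher), and regulators in 2 of 8, which were Yy1 itself and Pprc1.

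Overexpression of Yy1 in ES cells, the third comparison, was accompanied by lower levels of complex II. Of 89 nuclear genes, 7 were higher and 10 lower in oeYy1 (median 0.03), against 32% of all 16440 genes called, 14.8% higher and 17.1% lower. Sdhb, the iron-sulphur subunit of complex II, went from 118 and 116 CPM in oeCtrl to 64.5 and 61.7 CPM in oeYy1. Both oeYy1 libraries were far below the controls (log2 fold change -0.89, SE 0.15, adjusted p = 0.000244). Sdhc went from 98.8 and 94.6 CPM to 69.1 and 60.6 CPM (log2 fold change -0.58, SE 0.14, adjusted p = 0.00435), and Sdha, the flavoprotein, from 325 and 315 CPM to 263 and 241 CPM (log2 fold change -0.35, SE 0.11, adjusted p = 0.0234), again without overlap. Sdhd did not pass, with 110.0 and 96.5 and 92 and 91 CPM (log2 fold change -0.18, SE 0.14, adjusted p = 0.349). Complex II thus had 3 of 4 genes lower; Sdha, Sdhc and Sdhd are outside the rule for named genes and are given to show the complex whole.

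Complexes I and IV moved in both directions. In complex I, Ndufc2 (-0.66), Ndufa6 (-0.60) and Ndufa7 (-0.59), all accessory subunits, were lower. Ndufa12, Ndufv3 and Ndufab1 were higher by 0.68, 0.54 and 0.43. Ndufv3 was at 28.5 and 30.0 CPM in oeCtrl and 42.9 and 42.6 CPM in oeYy1, with no overlap (log2 fold change 0.54, SE 0.15, adjusted p = 0.0121). In complex IV, Cox6b2 was at 35 and 24.8 CPM and 17 and 13.7 CPM (log2 fold change -0.96, SE 0.23, adjusted p = 0.00448), while Cox6b1, the common form of the same subunit, was at 60.7 and 52 CPM and 76.4 and 81.4 CPM (log2 fold change 0.48, SE 0.17, adjusted p = 0.0437). The testis form was thus lower and the common form higher. Ndufa4l2 rose from 1.17 and 1.31 CPM to 5.76 and 4.30 CPM (log2 fold change 2.01, SE 0.39, adjusted p = 0.000873), and Cox6c rose by 0.52. Cox6a2 was listed at 0 in both oeYy1 libraries and at 0.894 and 0.392 CPM in oeCtrl, and Cox7b2 fell from 0.963 and 0.654 CPM to 0.0654 and 0.141 CPM.

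In complex V the only call was Atp5g1, the c-ring gene, at 100 and 94.8 CPM in oeCtrl and 157 and 158 CPM in oeYy1 (log2 fold change 0.69, SE 0.19, adjusted p = 0.0103). Its sister genes for the same protein did not pass, Atp5g2 with 107 and 98 and 109.9 and 107 CPM and Atp5g3 with 68 and 69.3 and 72.4 and 66.5 CPM. No gene of complex III or of the assembly factors passed edgeR's adjusted threshold, with medians of -0.06 over 8 genes and 0.06 over 10 genes; 2 and 3 did at an unadjusted p below 0.05, and DESeq2 called 1 and 1. Of 11 mitochondrial genes tested, mt-Nd4 was higher, at 1089 and 1035 CPM and 1369 and 1518 CPM (log2 fold change 0.44, SE 0.13, adjusted p = 0.0125). Of 13 named calls, those on Sdhb and Ndufa4l2 were kept under all 11 alternatives. The nuclear count was 4 and 9 without the first and second oeCtrl library and 5 and 3 without the first and second oeYy1 library, the mitochondrial count was 0 without either oeCtrl library or the second oeYy1 library, and 42 nuclear genes were called when only these 2 groups were fitted; with RLE factors the split was 11 higher and 10 lower.

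Outside the complexes, 8 of 20 fuel-entry genes were lower in oeYy1 and none higher (median -0.32). Suclg2, a subunit of succinyl-CoA synthetase, went from 169 and 159 CPM to 72.8 and 71.9 CPM (log2 fold change -1.19, SE 0.13, adjusted p = 2.77e-06) and Ucp2 fell by 0.91 on the log2 scale. Of 12 genes for mitochondrial DNA and its transcription, 4 were higher and none lower, among them Lrpprc at 156 and 157 CPM and 270.2 and 271 CPM (log2 fold change 0.78, SE 0.11, adjusted p = 5.58e-05), Tfb2m (0.62) and the organelle's RNA polymerase Polrmt (0.60). Of 34 assembly factors, 4 were higher and 8 lower. The strongest was Tmem70, a factor for the ATP synthase, at 20.2 and 16.9 CPM and 5.56 and 5.64 CPM (log2 fold change -1.73, SE 0.16, adjusted p = 6.98e-07). Mitochondrial ribosomal proteins had 9 higher and 4 lower of 76, with Mrps18b (0.81) and Mrpl20 (0.61) among the rises, electron carriers 2 higher and 1 lower of 14, and regulators 1 higher and 1 lower of 8, Yy1 and Esrra.

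Depletion and overexpression share no library, so their calls can be set side by side. Of the 89 nuclear genes tested in both, 64 were called in neither. No gene was called in the same direction in both, and 3 were called in opposite directions: Ndufv3, lower in shYy1 and higher in oeYy1, and Cox6b2 and Cox7b2, higher in shYy1 and lower in oeYy1. Those 3 are a share of 3 in 11 of the calls under depletion and of 3 in 17 of the calls under overexpression. Over all 16440 genes, 1681 were called in opposite directions, which is 35.9% of the calls under depletion and 32% of those under overexpression, and 410 in the same direction, which is 8.76% and 7.8%. The difference between the effects was not tested, and the lines differ in cell type and medium as well as in Yy1.

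**Figure D4:**
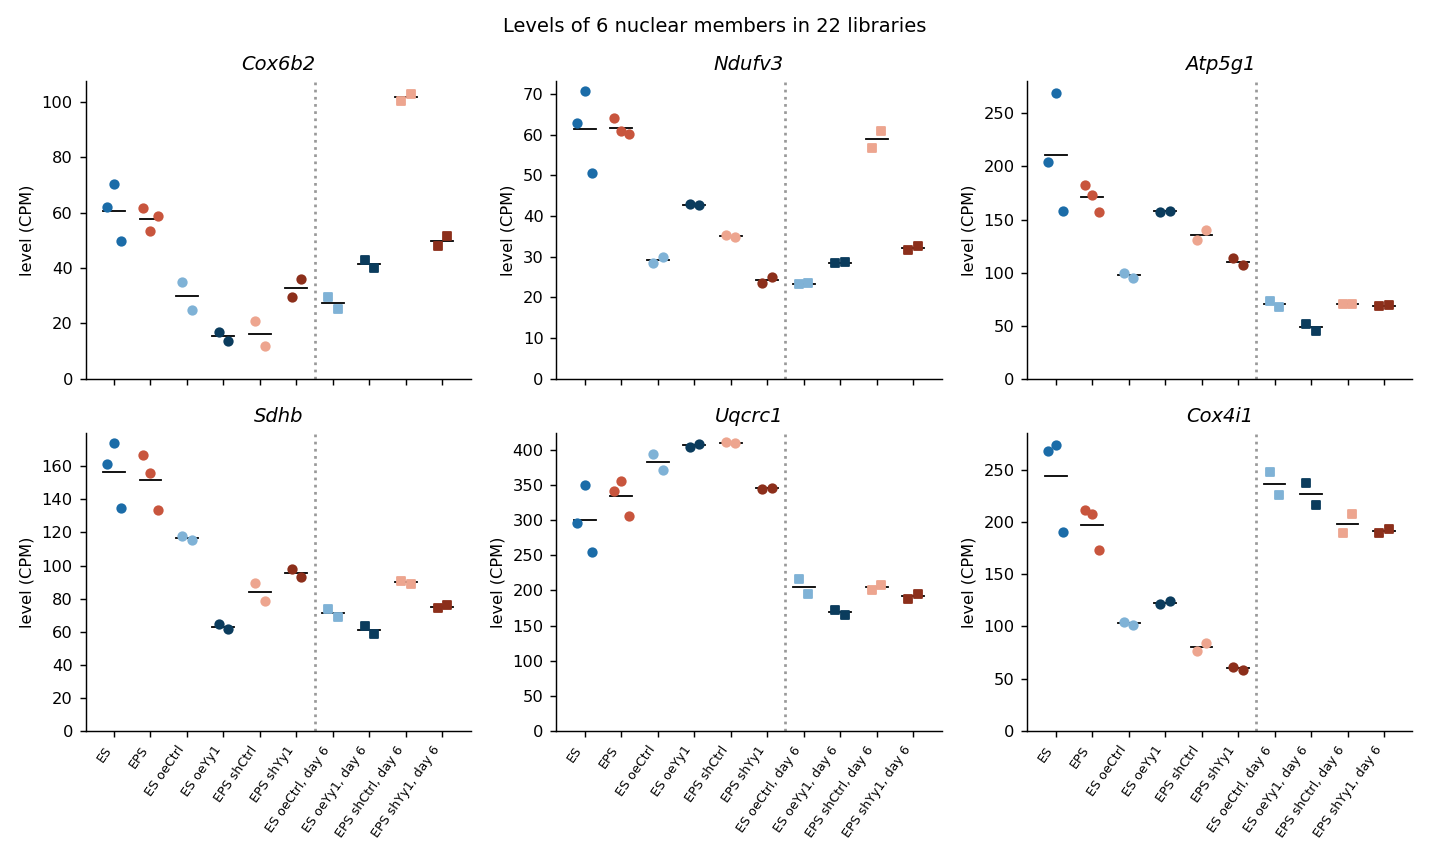
Levels in CPM of 6 nuclear genes in the 22 libraries (points; circles are undifferentiated and squares are day 6; bars are group means). Cox6b2 and Ndufv3 change in opposite directions between shYy1 and oeYy1 before F4H, Sdhb is lowest among the undifferentiated groups in oeYy1, and Uqcrc1 and Atp5g1 are lower on day 6 than before in all 4 lines.

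The start regions of these genes were read from RefSeq (build GRCm38.p6), as 300 bases from 250 before to 50 after an annotated start, for the 76 of 92 nuclear genes that have an entry. Of these 76 genes, 70 have 1 window and 6 have windows at 2 starts, and a gene was counted where any of its windows held the motif. The YY1 core motif AANATGGCG was searched on both strands. It was found in 11 of the 76 genes, which is 14.47%, against 2.764% of the 27025 genes of the table and 3.642% of its 17491 coding genes. In 8 of the 11 genes it was in a window at the outermost start of the gene, and in 6 of these it began on the gene's own strand at positions 23 to 36, counted from 1 at the start. In the other 3, Atp5j, Ndufa7 and Ndufs7, it was in a window at a start that lies 881, 73 and 344 bases inside the gene. The motif includes the letters ATG, and whether these are the start of translation was not tested. For comparison, the NRF1 motif GCGCATGCG was in 13.16% of the genes against 1.95% of all, the ETS core ACCGGAAG in 9.211% against 2.598%, and the ERR site TCAAGGTCA in 2.632% against 0.4662%.

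Below are the windows of the 3 motif genes called under depletion or overexpression before F4H, and that of Ndufv3, which was called in opposite directions in these comparisons and has no match in its window. Capitals mark the YY1 motif. Atp5j (F6 of the ATP synthase stalk, chr16:84834927-84835226, minus strand) was lower in shYy1, as was Atp5sl (chr7:25619164-25619463, plus strand), a factor for the distal arm of complex I that RefSeq lists as Dmac2. Ndufa7 (chr17:33824395-33824694, plus strand) was lower in oeYy1. Ndufv3 is at chr17:31519865-31520164, plus strand.
Atp5j: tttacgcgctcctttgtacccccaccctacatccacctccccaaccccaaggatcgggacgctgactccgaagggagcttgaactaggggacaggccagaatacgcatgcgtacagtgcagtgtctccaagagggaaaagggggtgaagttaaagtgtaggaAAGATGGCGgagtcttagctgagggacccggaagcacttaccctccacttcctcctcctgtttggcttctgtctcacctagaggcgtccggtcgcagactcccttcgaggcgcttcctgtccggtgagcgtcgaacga
Atp5sl: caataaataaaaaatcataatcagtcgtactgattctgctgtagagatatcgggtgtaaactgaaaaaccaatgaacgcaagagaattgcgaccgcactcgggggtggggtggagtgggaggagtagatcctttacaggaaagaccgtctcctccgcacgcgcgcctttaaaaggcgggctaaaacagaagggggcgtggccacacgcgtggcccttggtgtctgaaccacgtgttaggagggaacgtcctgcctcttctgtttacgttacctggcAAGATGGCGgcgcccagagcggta
Ndufa7: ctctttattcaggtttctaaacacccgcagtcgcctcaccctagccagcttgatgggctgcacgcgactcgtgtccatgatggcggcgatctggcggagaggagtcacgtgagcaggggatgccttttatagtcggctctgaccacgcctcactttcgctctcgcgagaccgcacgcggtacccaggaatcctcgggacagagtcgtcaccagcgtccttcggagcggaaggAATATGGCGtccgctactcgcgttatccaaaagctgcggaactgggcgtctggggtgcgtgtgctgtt
Ndufv3: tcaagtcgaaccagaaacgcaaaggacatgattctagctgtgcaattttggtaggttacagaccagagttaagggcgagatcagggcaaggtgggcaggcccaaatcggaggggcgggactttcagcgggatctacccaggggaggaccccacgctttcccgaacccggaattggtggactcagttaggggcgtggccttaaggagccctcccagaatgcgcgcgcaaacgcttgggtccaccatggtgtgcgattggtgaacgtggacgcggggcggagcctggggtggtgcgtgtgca

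Relative to the start of the window shown, the motif begins at position -88 in Atp5j, 27 in Atp5sl and -18 in Ndufa7. The windows of Atp5j and Ndufa7 are at inner starts, so that from the outermost start of these genes the motif begins at positions 794 and 56; the window of Atp5sl is at its outermost start. In the libraries, Atp5j was at 80.0 and 71.5 CPM in shCtrl and 57.1 and 58.5 CPM in shYy1 (log2 fold change -0.45, SE 0.14, adjusted p = 0.022). Atp5sl was at 42.1 and 46.9 CPM and 35.9 and 31.5 CPM (log2 fold change -0.47, SE 0.14, adjusted p = 0.0217), and neither gene overlapped between the groups. Ndufa7 was at 69 and 62.7 CPM in oeCtrl and 45.6 and 42.3 CPM in oeYy1 (log2 fold change -0.59, SE 0.20, adjusted p = 0.0356). Under depletion before F4H 2 of 11 with the motif were lower and none higher (median -0.18), against 4 lower and 4 higher of 64 without it (median -0.17). Under overexpression before F4H 1 of 11 with the motif was lower and none higher (median -0.19), against 6 lower and 5 higher of 64 without it (median 0.08). On day 6 more were called on both sides: in oeYy1, 5 of 11 with the motif were lower (Atp5b, Atp5j, Atp5j2, Ndufs4 and Ndufs7) and 1, Atp5sl, was higher (median -0.14), against 18 lower and 8 higher of 63 without it (median -0.02). In the day 6 libraries labelled shYy1, where Yy1 did not pass the test, 7 of 11 with the motif were lower and 1 higher (median -0.28), against 31 lower and 6 higher of 63 (median -0.15). The difference between genes with and without the motif was not tested. No match says only that these letters are not in the window.

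EPS shCtrl against ES oeCtrl, both with a control construct, is a second view of the EPS and ES difference, in which construct and cell type cannot be told apart. Of 89 nuclear genes, 14 were higher and 7 lower in EPS shCtrl (median 0.14), against 40.4% of all genes called, 19.7% higher and 20.7% lower. Atp5g3, the third c-ring gene, was at 68 and 69.3 CPM in ES oeCtrl and 130.4 and 159 CPM in EPS shCtrl (log2 fold change 1.06, SE 0.21, adjusted p = 0.000732). Uqcrh (0.74), the assembly factor Ndufaf2 (0.77), Ndufb10 (0.69), Atp5l, subunit g of the synthase (0.65), and Cox7b (0.60) were also higher. Ndufs1 was higher here (0.54) as it was in EPS against ES, the only nuclear gene with a rise in both; over all genes, 1055 rose in both, which is 46.7% of the rises in EPS against ES and 32.5% of those here. Cox6b2 was lower (log2 fold change -0.91, SE 0.23, adjusted p = 0.00494). The shCtrl and oeCtrl libraries are also the controls of the depletion and overexpression comparisons.

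Chromosomes 6 and 8 as a whole had lower levels in EPS shCtrl. Ndufa4 (log2 fold change -0.68, SE 0.15, adjusted p = 0.00169) and Ndufa5 (log2 fold change -0.64, SE 0.20, adjusted p = 0.019), both on chromosome 6, fell, and the median over the 768 genes tested there was -0.42. On chromosome 8 the median over 819 genes was -0.44, and Cox4i1 was at 104 and 101 CPM and 76 and 84.5 CPM but did not pass. In EPS against ES the medians of chromosomes 6 and 8 were -0.29 and -0.28, against -0.02 for the autosomes. The part of these chromosome-wide shifts in the levels of single genes was not tested. Of the mitochondrial genes outside the uncertain stretch, mt-Cytb was higher, at 2643 and 2541 CPM and 3823 and 5023 CPM (log2 fold change 0.76, SE 0.15, adjusted p = 0.000783), and mt-Co1 (log2 fold change -0.78, SE 0.15, adjusted p = 0.000463), mt-Nd5 (-0.73) and mt-Nd6 (-1.22) were lower. The nuclear count of 21 became 11 and 10 without the first and second oeCtrl library and 8 without the second shCtrl library. Of the lists outside the complexes, mitochondrial ribosomal proteins had 22 higher and 3 lower of 76 (median 0.30), assembly factors 7 higher and 2 lower of 34, electron carriers 3 higher and 1 lower of 14, mitochondrial DNA factors 2 higher and 1 lower of 12, and fuel entry 1 higher, Pdk1 (2.42), and 3 lower of 20. Of 8 regulators none passed edgeR's adjusted threshold, and 1 did at an unadjusted p below 0.05.

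Between the day 6 libraries labelled shYy1 and shCtrl, Yy1 no longer differed by the test (log2 fold change -0.03, SE 0.05, adjusted p = 0.566). In CPM, which leaves out the TMM factors, both shYy1 libraries were below both controls. The test of Yy1 under other scalings is not given here. Of 88 nuclear genes, 9 were higher and 45 lower in shYy1 (median -0.16), against 61.3% of all 15927 genes called, 30.9% higher and 30.4% lower. Assembly factors fell most often, 7 of 10 with none higher (median -0.54). Atp5sl went from 42.8 and 45.4 CPM in shCtrl to 19.2 and 23.5 CPM in shYy1 (log2 fold change -0.92, SE 0.09, adjusted p = 2.05e-14). Ndufaf6 went from 16.1 and 17.1 CPM to 7.64 and 10.1 CPM (log2 fold change -0.79, SE 0.14, adjusted p = 1.39e-06) and Ndufaf3 from 17 and 14.9 CPM to 8.92 and 8.31 CPM (log2 fold change -0.75, SE 0.13, adjusted p = 1.35e-06), both of them factors for complex I. In each of the 3 genes both shYy1 libraries were below both controls. Summed pluripotency markers were also lower, at 450.3 and 453 CPM in shCtrl and 202 and 182 CPM in shYy1, although 4 of these 8 genes were higher and 2 lower. Summed trophoblast markers went from 3241 and 3244 CPM to 6244 and 6321 CPM (4 higher and 3 lower of 7 tested), neural markers from 105 and 100.2 CPM to 305 and 316 CPM (2 higher of 3), and mesendoderm markers from 414 and 412 CPM to 207 and 216 CPM (1 higher and 4 lower of 5). The part of these markers in the results was not tested.

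Complex I followed, with 21 of 36 genes lower and 3 higher (median -0.18). Ndufv3 went from 56.8 and 61 CPM to 31.6 and 32.5 CPM (log2 fold change -0.74, SE 0.07, adjusted p = 1.99e-13). Of the 7 core subunits 4 were lower and 1, Ndufs1, was higher, at 85.1 and 92.7 CPM and 96.3 and 95.4 CPM (log2 fold change 0.24, SE 0.05, adjusted p = 9.93e-05). The ATP synthase was mixed, with 4 genes higher and 6 lower of 15: Atp5l (0.38) and Atp5b (0.22) rose, and Atp5g2 fell (-0.52). In complex IV, 1 gene was higher and 5 were lower of 15, and Cox6b2 went from 100.3 and 103 CPM to 48 and 51.6 CPM (log2 fold change -0.90, SE 0.06, adjusted p = 1.67e-18). Complex II had 2 of 4 lower and complex III 1 higher and 4 lower of 8. X-linked Ndufa1 rose (0.29), and Ndufb6 rose as well (0.31). Of 571 X-linked genes tested, 276 were higher and 111 lower, with a median of 0.26 against -0.02 for the autosomes. The 3 X-linked members had a median of -0.06, and the part of the X-wide shift in the rise of Ndufa1 was not tested.

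The mitochondrial genes were called in both directions. mt-Co1 was at 10613 and 10310.5 CPM in shCtrl and 7101 and 7179.8 CPM in shYy1 (log2 fold change -0.42, SE 0.06, adjusted p = 1.14e-05), while mt-Nd1 (0.28), mt-Cytb (0.27) and mt-Nd6 (0.18) were higher. Cytosolic ribosomal protein genes, which are no members, were lower in 64 of 81 cases (median -0.35), and the mitochondrial ribosome had 41 lower and 5 higher of 76 (median -0.22), led by Mrpl23 (-1.41). Electron carriers had 3 higher and 6 lower of 14, with Coq2, an enzyme of ubiquinone synthesis, at -0.89; assembly factors 4 higher and 10 lower of 33; mitochondrial DNA factors 1 higher and 5 lower of 12, with Ssbp1 at -1.16; fuel entry 7 in each direction of 20; and regulators 3 higher of 8. Scaled by library totals alone the median of all genes shifted from -0.01 to -0.15, and 2 nuclear genes were then higher and 68 lower, so the balance of rises and falls depends on the scaling. Of 16 named calls, 9 were kept under all 11 alternatives, those on Cox6b2, Atp5sl, Ndufaf3, Ndufaf6, Ndufv3, Atp5g2, Atp5l, Ndufb6 and mt-Co1.

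Set beside the undifferentiated cells, 5 of the 7 genes that fell in shYy1 before F4H were also lower on day 6 (Atp5j, Atp5o, Atp5sl, Ndufv3 and Uqcrh), which is 5 of the 45 falls on day 6. Over all genes tested at both stages, 643 of the 2110 that fell before F4H were also lower on day 6, which is 30.5% of these and 14.1% of the falls on day 6. Cox6b2 and Atp5s were higher before and lower on day 6. Both stages use different libraries. Whether each change differed between the stages was tested in a joint fit of 16 libraries. There 34 of 90 nuclear genes differed, 15 with a more positive and 19 with a more negative effect on day 6, against 41.4% of all 17207 genes called, 21.2% higher and 20.2% lower; scaled by library totals alone, the split was 4 and 31, with the median of all genes at -0.18. The effect on Cox6b2 differed by -1.87 (SE 0.26) and that on Atp5s by -1.61 (SE 0.26). Both calls were kept under all 15 alternatives.

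Overexpression of Yy1 on day 6 was accompanied by lower levels in the ATP synthase and the core of complex I. Of 88 nuclear genes, 11 were higher and 28 lower in oeYy1 (median -0.07), against 41.9% of all 15927 genes called, 20.3% higher and 21.6% lower. In complex V, 8 of 15 genes were lower and 1 higher. Atp5g1 went from 73 and 67.6 CPM in oeCtrl to 52 and 45.2 CPM in oeYy1 (log2 fold change -0.58, SE 0.07, adjusted p = 1.62e-10), so that it was lower on day 6 and higher before. Of the 7 core subunits of complex I, 5 were lower and none higher (median -0.29), with Ndufs8 at 43.8 and 38.3 CPM and 32.5 and 29.4 CPM (log2 fold change -0.45, SE 0.08, adjusted p = 9.13e-06) and Ndufs7 at -0.42. Uqcr10, a small subunit of complex III (-0.39), and Cox6a1 of complex IV (-0.41) fell as well. Summed fibroblast markers were at 4313 and 4284 CPM in oeCtrl and 6239.9 and 6547 CPM in oeYy1, although only 3 of these 13 genes were higher and 6 were lower (median -0.16). Summed trophoblast markers went from 5557 and 5517 CPM to 3474 and 3329 CPM (4 higher and 3 lower of 7 tested) and mesendoderm markers from 348 and 342 CPM to 619 and 692 CPM (5 of 5 higher). The part of these markers was not tested.

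In complex II, Sdhb was lower as it was before F4H, at 73.6 and 68.9 CPM and 63.6 and 58.7 CPM (log2 fold change -0.26, SE 0.06, adjusted p = 0.000363), and Sdha too (-0.23). Among the rises, Cox6b2 was at 29.6 and 25.3 CPM and 42.8 and 40.1 CPM (log2 fold change 0.55, SE 0.08, adjusted p = 6.02e-08), opposite to its change before F4H. Ndufv3 was at 23.3 and 23.5 CPM and 28.4 and 28.6 CPM (log2 fold change 0.25, SE 0.09, adjusted p = 0.0174), in the same direction as before. Atp5sl (0.28), Ndufb8 (0.24) and Atp5k, subunit e of the synthase (0.23), also rose. Of the mitochondrial genes outside the uncertain stretch, mt-Cytb (-0.28) and mt-Nd4 (-0.26) fell and mt-Nd6 rose (0.25). With the stretch included, the mitochondrial count of 4 was 2 without the first oeCtrl library and 7 without the second oeYy1 library. The lists outside the complexes had 1 higher and 6 lower of 14 electron carriers, 4 and 3 of 33 assembly factors, 2 and 4 of 12 mitochondrial DNA factors, 2 and 1 of 8 regulators, 5 and 7 of 20 fuel-entry genes and 8 and 19 of 76 mitochondrial ribosomal proteins. The regulators that were higher include Yy1 itself, the overexpressed gene (log2 fold change 1.38). Lrpprc fell here (-0.34), as did Cs, the citrate synthase (-0.32).

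In the joint fit, 27 of 90 nuclear genes had an effect of oeYy1 that differed between the stages, 9 more positive and 18 more negative on day 6, against 37.7% of all genes called, 18.3% higher and 19.3% lower. Cox6b2 differed by 1.49 (SE 0.28), Sdhb by 0.61 (SE 0.10) and Atp5g1 by -1.28 (SE 0.12), and all 3 calls were kept under all 15 alternatives. The effect on Yy1 itself differed by -1.58 (log2), being smaller on day 6.

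The day 6 control lines of EPS and ES cells were compared next. Of 88 nuclear genes, 59 were higher and 8 lower in EPS shCtrl than in ES oeCtrl (median 0.24), against 64.1% of all 15927 genes called, 31.6% higher and 32.4% lower. Cox6b2 was at 29.6 and 25.3 CPM in ES oeCtrl and 100.3 and 103 CPM in EPS shCtrl (log2 fold change 1.73, SE 0.07, adjusted p = 4.24e-30). Ndufv3 was at 23.3 and 23.5 CPM and 56.8 and 61 CPM (log2 fold change 1.19, SE 0.08, adjusted p = 8.25e-21), and Atp5s (1.05), Ndufa6 (0.94) and Ndufaf3 (0.89) rose by nearly as much. Assembly factors were higher in 9 of 10 cases (median 0.50), complex I in 26 of 36 with 3 lower, complex II in 3 of 4, complex III in 5 of 8 with 1 lower, complex IV in 8 of 15 with 2 lower and complex V in 8 of 15 with 2 lower. This comparison and that of shYy1 with shCtrl share the day 6 shCtrl libraries. Cox6b2, Ndufv3 and Ndufaf3 are highest of the 4 day 6 groups in those libraries. Cell type markers differed between the control lines as well. Summed trophoblast markers were at 5557 and 5517 CPM in ES oeCtrl and 3241 and 3244 CPM in EPS shCtrl, and neural markers at 402 and 395 CPM and 105 and 100.2 CPM. Of 8 pluripotency markers 7 were lower in EPS shCtrl (median -2.04), and of 9 primitive endoderm markers 7 were higher (median 1.27); the part of these markers was not tested.

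Among the genes that were lower in day 6 EPS shCtrl, Cox4i1 was at 247 and 225 CPM and 189 and 207 CPM (log2 fold change -0.40, SE 0.05, adjusted p = 3.42e-09). It lies on chromosome 8, whose median over 798 genes was -0.41, and Ndufa9 (-0.29) and Ndufa4 (-0.29) lie on chromosome 6, with a median of -0.33 over 767 genes. Atp5b (-0.27) and Ndufs1 (-0.25) were lower too. mt-Co1 was higher (log2 fold change 0.47, SE 0.06, adjusted p = 2.49e-06) and mt-Cytb lower (-0.33). The mitochondrial count of 5, with the uncertain stretch included, was 3 without the second shCtrl library. The list of fuel entry was called in 7 genes in each direction of 20, with Pdk2 at 2.43; regulators had 1 higher and 6 lower of 8; electron carriers 6 higher and 3 lower of 14; assembly factors 14 higher and 7 lower of 33; mitochondrial DNA factors 7 higher and 4 lower of 12; and mitochondrial ribosomal proteins 35 higher and 13 lower of 76. Cytosolic ribosomal proteins were higher in 64 of 81 cases. Scaled by library totals alone, the median of all genes moved from 0.02 to 0.17 and 70 nuclear genes were higher and 4 lower.

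Day 6 was also compared with the undifferentiated state of the same line. The labels name a library kit only for the submission of the day 6 samples, so stage and submission cannot be told apart. In EPS shCtrl, 59 of 90 nuclear genes were higher and 13 lower on day 6 (median 0.54), against 74% of all 17207 genes called, 38% higher and 36% lower. In EPS shYy1 the counts were 52 and 20 (median 0.39), with 75.4% of all genes called, 38.4% higher and 37% lower. In ES oeCtrl they were 50 and 24 (median 0.49), with 73% called, 37.4% higher and 35.6% lower, and in ES oeYy1 53 and 22 (median 0.35), with 72.7% called, 36.5% higher and 36.2% lower.

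Small accessory subunits of complexes I and V led the rises among nuclear genes at 5 CPM or more. Atp5k, subunit e of the ATP synthase and part of its dimer interface, was at 7.06 and 6.94 CPM in undifferentiated EPS shCtrl and 88.8 and 100.3 CPM on day 6 (log2 fold change 3.64, SE 0.11, adjusted p = 5.03e-17). In ES oeCtrl it went from 5.57 and 5.69 CPM to 60.0 and 58.4 CPM (log2 fold change 3.41, SE 0.12, adjusted p = 3.51e-16), and in ES and EPS cells without a construct it was at 46.5, 47.8 and 27.2 CPM and 38.6, 28.2 and 23 CPM. Those untransduced libraries thus lay between the other undifferentiated libraries and day 6. Ndufa1, an X-linked accessory subunit of complex I, was at 5.17 and 6.35 CPM and 35.7 and 40.8 CPM in EPS shCtrl (log2 fold change 2.61, SE 0.15, adjusted p = 1.35e-12) and at 28.2, 30.0 and 20.1 CPM in ES. Ndufa2 (2.93), Ndufa3 (2.80) and Cox6b2 (2.54) followed in EPS shCtrl. Complex I had 28 of 36 genes higher and 4 lower in that line (median 0.84), and complex IV 11 of 17 higher and 1 lower (median 0.87).

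Several core subunits fell. Uqcrc1, a core protein of complex III, was at 411 and 409 CPM in EPS shCtrl and 201 and 208 CPM on day 6 (log2 fold change -1.13, SE 0.07, adjusted p = 4.43e-12), and it fell in the other lines as well, with log2 fold changes of -0.78 in EPS shYy1, -0.89 in ES oeCtrl and -1.31 in ES oeYy1. Atp5a1 was at 1274 and 1366 CPM and 721 and 741 CPM (log2 fold change -0.97, SE 0.07, adjusted p = 1.02e-10), and Atp5b fell too (-0.80). Atp5g1 was at 157 and 158 CPM in ES oeYy1 and 52 and 45.2 CPM on day 6 (log2 fold change -1.74, SE 0.08, adjusted p = 8.47e-14), while its sister gene Atp5g3 rose there (1.89). The 7 core subunits of complex I had 2 higher and 3 lower in EPS shCtrl (median -0.08), among them Ndufs1 (-0.81), and complex II had 1 higher and 3 lower of 4 in ES oeCtrl (median -0.34). Of the mitochondrial genes, mt-Cytb (-1.20), mt-Nd2 (-0.90), mt-Nd1 (-0.89) and mt-Nd4 (-0.66) fell in EPS shCtrl and mt-Nd6 rose (0.83). mt-Co1 fell in ES oeCtrl, from 17274 and 15890.2 CPM to 6559 and 7049 CPM (log2 fold change -1.27, SE 0.08, adjusted p = 7.56e-12).

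The median change was smaller in genes of longer genomic span. In EPS shCtrl the members with a span under 5000 bases had a median of 0.89 (18 of 26 higher, 3 lower), those from 5000 to 15000 bases 0.63 (31 of 43 higher, 4 lower) and those over 15000 bases 0.13 (10 of 21 higher, 6 lower). In ES oeCtrl the medians were 0.57, 0.56 and -0.05. Genes outside the set moved in the same way: those under 2000 bases had a median of 0.42 in EPS shCtrl against 0.02 for the longer ones, and ribosomal protein genes had 56 of 83 higher and 14 lower (median 0.55). The part of gene span in these changes was not tested.

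**Figure D5:**
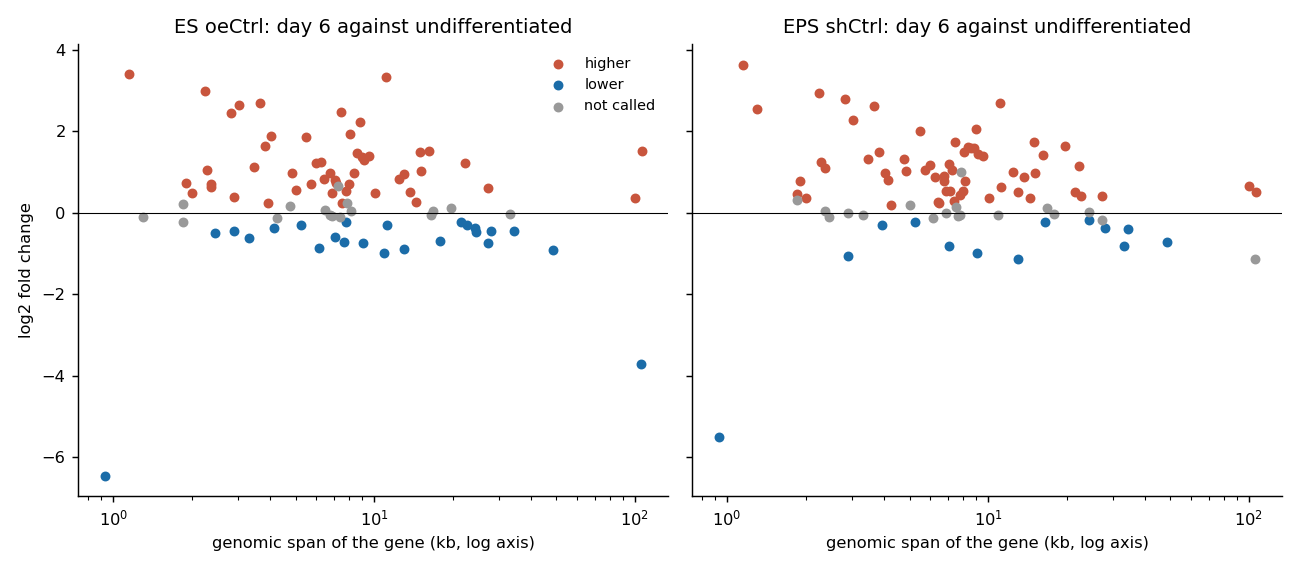
The log2 fold change of each nuclear gene between day 6 and the undifferentiated state (vertical axis) against its genomic span in kilobases (log axis), in ES oeCtrl and EPS shCtrl; red and blue mark higher and lower genes and grey genes that were not called. The rises above 2 lie towards the shorter spans, and genes at the long end lie on both sides of 0.

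Genes that feed the chain fell on day 6. Of 20 fuel-entry genes, 16 were lower and 2 higher in EPS shCtrl (median -0.57), 15 and 1 in EPS shYy1, 14 and 2 in ES oeCtrl (median -0.64) and 13 and 1 in ES oeYy1. In EPS shCtrl these included Ogdh, the 2-oxoglutarate dehydrogenase, from 253 and 235 CPM to 143 and 144 CPM (log2 fold change -0.88, SE 0.06, adjusted p = 7.7e-11), Pdhb (-0.83) and Cs (-0.78). Of 8 regulators, 6 were lower and none higher in EPS shCtrl, among them Gabpa, an ETS factor for nuclear respiratory genes (-1.55), and Pprc1, a relative of PGC-1 (-1.21); the counts were 5 lower and 3 higher in EPS shYy1, 5 and 1 in ES oeCtrl and 5 and 2 in ES oeYy1. Mitochondrial DNA factors were lower in 5, 10, 8 and 9 of 12 cases in the same order of lines and higher in 2 in each; electron carriers were lower in 7, 8, 6 and 9 of 14. Yy1 itself is among the regulators called in EPS shCtrl (-0.21), EPS shYy1 (0.73) and ES oeYy1 (-1.56). Assembly factors and mitochondrial ribosomal proteins were called in both directions, the latter with 22 higher and 30 lower of 76 in EPS shCtrl. Scaled by library totals alone, the median of all genes in EPS shCtrl moved from 0.03 to 0.15 and the nuclear split was 64 higher and 9 lower.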

How the data were processed

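The authors deposited 1 table of raw read counts per gene for each of the 22 RNA-seq libraries. Per the labels' protocols, RNA was extracted with TRIzol; the submitters' processing notes list Bowtie2 2.3.2 and CASAVA with the builds GRCm38.p6 and mm10, and the counting tool and its strand setting are not given in the sources used here. The tables' rows for reads in no gene (5.61 to 8.62% in no feature, 3.70 to 5.32% ambiguous, 5.45 to 6.66% aligned to more than 1 place) were left out of library sizes and tests. CPM is each count over the gene counts of its library, times 1000000; intervals and detection limits cover counting error only.

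Groups were taken from the sample labels. Tests used edgeR 4.0.16 in R 4.3.3 (TMM factors, filterByExpr, robust quasi-likelihood fit, Benjamini-Hochberg adjustment over all genes of a comparison, threshold 0.05), in 3 fits: the 14 undifferentiated libraries (16440 genes), the 8 day 6 libraries (15927) and the 16 libraries with a construct (17207). SE is the absolute log2 fold change over the root of F. Alternatives were RLE factors, library totals alone, library sizes from nuclear genes, no count filter, DESeq2 1.42.0, a replicate block, only the groups compared, each library left out, and for Yy1 depletion no X-linked and Y-linked genes; leaving out replicate 3 of both ES and EPS was chosen after seeing the data. Same-numbered ES and EPS libraries deviated together (correlations of 0.209, 0.276 and 0.502), but the main tests did not pair them. Only the replicate block used the numbers, and it did so for all groups of a fit. No 2 libraries of the same group agreed within sampling noise. Tables and figures used Python 3.11.15, pandas 2.3.3, numpy 2.4.6 and matplotlib 3.10.9.

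The members, the gene lists and the tests were chosen with earlier results of these data known. Named in every comparison where they matter are the mitochondrial genes, genes with tissue isoforms and X-linked genes, and in each comparison the 5 nuclear genes that rose most and the 5 that fell most among those called with at least 5 CPM on average and groups that do not overlap, and 3 called genes of smallest p per pathway list; other genes named were chosen after their values were seen. The fit was tested on simulated counts with 200 changed genes. For shYy1 against shCtrl before F4H (16440 genes) it recovered 26.9% of 1.5-fold and 79.1% of 2-fold changes. On day 6 (15927 genes) it recovered 91% and 100%. Of the calls in these simulations, 6.99% before F4H and 8.49% on day 6 were false, above the share that the adjusted threshold aims for. The data themselves gave 4682 calls before F4H and 9761 on day 6. Recovery and false calls with that many changed genes were not tested. Values of 1 member and 1 gene of the fuel-entry list are not reported here one by one.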

Additional observations from a re-analysis of the deposited data

Results flagged for a closer look

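Each of these effects of Yy1 manipulation differed between undifferentiated cells and day 6 in the joint edgeR quasi-likelihood fit with Benjamini-Hochberg adjustment. Values are the day 6 log2 effect minus the undifferentiated one. For shYy1 against shCtrl, 34 of 90 nuclear genes (37.8%) and 4 of 13 mitochondrial genes (30.8%) differed, against 41.4% of all 17207 genes tested. The effect was more positive on day 6 for Atp5l (0.863), Ndufb6 (0.684), Cox4i1 (0.563), Ndufs1 (0.556) and Ndufs8 (0.535). It was more negative for Cox6b2 (-1.87), Atp5s (-1.61), Ndufaf6 (-1.19), Ndufa6 (-0.915) and Ndufb4 (-0.901). Yy1 itself was lower in shYy1 before F4H, and on day 6 it did not pass the test.

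For oeYy1 against oeCtrl, 27 of 90 nuclear genes (30%) and 3 of 13 mitochondrial genes (23.1%) differed, against 37.7% of all 17207 genes tested. The effect was more positive on day 6 for Cox6b2 (1.49), Ndufa6 (0.735), Sdhb (0.61), Uqcrb (0.592) and Ndufa13 (0.532). It was more negative for Atp5g1 (-1.28), Cox6c (-0.862), Ndufa8 (-0.752), Ndufb6 (-0.71) and Ndufb10 (-0.623).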

How the results depend on the processing

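Of 5715 values of single genes under an alternative, 5344 kept direction and side of the threshold, 234 lost a call, 133 gained one and 4 reversed. The cause of these moves was not tested. The reversals were mt-Co1 under oeYy1 on day 6 (-0.12, adjusted p 0.0249, edgeR, without the second oeYy1 library, and 0.12 without the first), mt-Nd5 in the same comparison (0.11, adjusted p 0.0437, edgeR, without the first, and -0.18 without the second), Atp5g1 between the day 6 controls (0.0062, edgeR, library totals alone) and Cox6a2 between stages in EPS shCtrl (0.00 without the first undifferentiated library, and -6.47 without the second).

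Nuclear calls for EPS against ES were 10, and became 26 with the replicate block, 4 with only these groups and 22 without replicate 3 of both groups; the mitochondrial calls went from 2 to 1 with library totals alone and with only these groups. With no count filter the nuclear split was 6 higher and 6 lower. Outside that comparison same-numbered libraries had correlations from -0.0363 to 0.0872 and share only a number. The replicate block gave 32 nuclear calls (7 higher, 25 lower) for shYy1, 38 (23 and 15) for oeYy1 and 38 (26 and 12) for EPS shCtrl against ES oeCtrl, and no other count past 1.5 times the main one among nuclear genes. For shYy1, no count filter gave 19 nuclear calls and only these groups 1 mitochondrial call. For oeYy1, only these groups gave 42 nuclear and 6 mitochondrial calls, and RLE factors, library totals alone, no count filter, DESeq2 and the block each gave 2 mitochondrial calls against 1. On day 6 the mitochondrial calls for shYy1 were 1 with library totals alone and 7 with only these groups against 4; with DESeq2 they were 2 against 4 for oeYy1 and 3 against 5 between the controls. For the change of the oeYy1 effect between stages, only these groups gave 5 against 3. Mitochondrial counts in this section include the uncertain stretch from mt-Co2 to mt-Nd4l.

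Leaving out 1 library gave these ranges of nuclear and mitochondrial calls: 4 to 17 and 1 to 2 for EPS against ES, 2 to 14 and 0 to 2 for shYy1, 3 to 9 and 0 to 1 for oeYy1, 8 to 19 and 4 to 5 for EPS shCtrl against ES oeCtrl, 43 to 49 and 3 to 4 for day 6 shYy1, 30 to 44 and 2 to 7 for day 6 oeYy1, 55 to 66 and 3 to 6 for the day 6 controls, 65 to 72 and 11 to 11 between stages in EPS shCtrl, 67 to 70 and 11 to 12 in EPS shYy1, 68 to 73 and 10 to 12 in ES oeCtrl, 64 to 72 and 9 to 11 in ES oeYy1, and 23 to 43 and 3 to 6 (shYy1) and 19 to 27 and 2 to 3 (oeYy1) for the changes between stages.

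With mitochondrial rows out of the denominator the summed nuclear level was 8318 CPM in oeYy1, 9184 in shCtrl, 8775 in shYy1 and 9121 in day 6 shYy1, and with effective library sizes 7927, 8736, 7974 and 9206 in the same groups and 9622 in day 6 shCtrl. The mitochondrial sum was 23059.5 CPM in shCtrl and 15945 in day 6 shYy1 with the first change, and 27272 in EPS, 21931 in shCtrl, 17382 in day 6 shCtrl and 16092 in day 6 shYy1 with the second. With 2 libraries per group, depth and spread limit the detection of changes under 2-fold before F4H.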

Other observations

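Some rows outside the 105 genes carry sequence annotated as copies of mitochondrial genes. Gm10925 was at 127 CPM in the first ES library and between 0.7 and 8.3 CPM in the other 21 libraries. Gm28661 was at 63.4 CPM in the first EPS shCtrl library and between 1.1 and 33.8 CPM elsewhere. Gm28438 reached 51.1 CPM in the second EPS library.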
